A study of Mus musculus with 12 samples.

Results

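The liver releases protein hormones, the hepatokines, that carry its metabolic state and its stress to other organs. The transcripts of 9 such genes, chosen by gene symbol, were described in alcohol-fed mice: Fgf21, Gdf15, Inhbe, Igfbp1, Igfbp2, Angptl6, Angptl8, Ahsg and Fetub. They were 9 of 54232 gene IDs in the table of read counts, and all 9 were among the 14168 genes that passed the filter on low counts. Whole liver RNA of male C57BL6/J mice was sequenced after 8 weeks in the intragastric model of alcohol-associated steatohepatitis (ASH), with 1 library per mouse and a labelled age of 8 weeks. The 5 pair-fed (PF) mice received an isocaloric high-fat liquid diet. The 7 alcohol-fed (AF) mice received ethanol at up to 27 g/kg/day with the liquid diet and, in addition, a weekly binge of 5 g/kg. The methods name a solid diet rich in cholesterol and saturated fat beside the liquid diet, or chow, without saying which of these the PF mice ate, so ethanol and solid diet may not be separable. The groups did not differ in genotype, and the mice were killed on the day after the last binge, so chronic and binge exposure cannot be told apart.

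Fgf21 and Gdf15 are hormones of cellular stress. They are known as targets of ATF4 and CHOP, the transcription factors of the integrated stress response, which cells start when protein folding or amino acid supply fails. The insulin-like growth factor (IGF) binding proteins Igfbp1 and Igfbp2 hold IGFs in the blood and follow fasting and insulin, the angiopoietin-like proteins act on lipid handling, and the fetuins Ahsg and Fetub are abundant plasma glycoproteins made by hepatocytes.

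Depth ranged from 24129900 to 30578639 reads on genes per library. Levels are given as CPM (read counts scaled to a common library size), scaled between libraries with the TMM method of edgeR, with factors of 0.832 to 0.901 for the PF and 0.88 to 1.36 for the AF livers. With this scaling 3116 genes were higher and 2519 were lower in AF than in PF livers, and on library totals alone 6458 were higher and 938 lower, while the median log2 fold change of all genes moved from 0.04 to 0.40. Hepatocyte markers were detected in all livers, and their summed level was 107162 to 150289 CPM in PF and 59702 to 111607 CPM in AF livers, with 0 of 10 higher, 4 lower and none at 0. Of other cell types, 9 of 12 macrophage markers, 8 of 10 stellate cell markers and 4 of 6 tested bile duct markers were higher and none of these was lower, while 1 of 6 tested T and NK cell markers (Cd4) was lower and none of 4 B cell markers passed. Summed levels in PF against AF livers were 1021 to 1603 against 1913 to 5146 CPM for macrophage, 231 to 551 against 472 to 1145 CPM for stellate cell and 58.8 to 253 against 79.6 to 1109 CPM for bile duct markers. For T and NK cell markers they were 7.32 to 13.1 against 3.24 to 6.29 CPM, with all 7 AF livers below the PF range, and for B cell markers 2.36 to 6.38 against 1.11 to 3.46 CPM, with 5 AF livers below it. In whole tissue, fewer cells of a type and less RNA per cell cannot be told apart, and the part of these shifts in the hormone values was not tested. Neutrophil markers summed to 1026 CPM in PF replicate 1 and to at most 225 CPM in any other PF or AF liver.

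Compared to PF livers, Fgf21 and Igfbp2 were higher in AF livers, with edgeR's quasi-likelihood test and a threshold of 0.05 on p adjusted over all 14168 genes. These were 2 of the 9 hormone genes, 0 were lower, and of all genes tested 39.8% passed in either direction, 22% as higher and 17.8% as lower. Read against these shares, 2 of 9 is not more than genes in general show. The median log2 fold change was 0.52 over the 9 genes and 0.04 over all genes. Gdf15, Inhbe and Ahsg lay just beyond the threshold, with edgeR adjusted p of 0.074, 0.068 and 0.0755, and at an unadjusted p under 0.05 the count was 5 higher and 0 lower, where 27.3% of all genes were higher and 22.3% lower. Of the 9 genes, Fgf21 was the one in which every AF liver exceeded every PF liver, a separation seen in 8.2% of all genes. In none of the 9 did every AF liver fall below every PF liver, which 9.49% of all genes did.

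**Figure D1:**
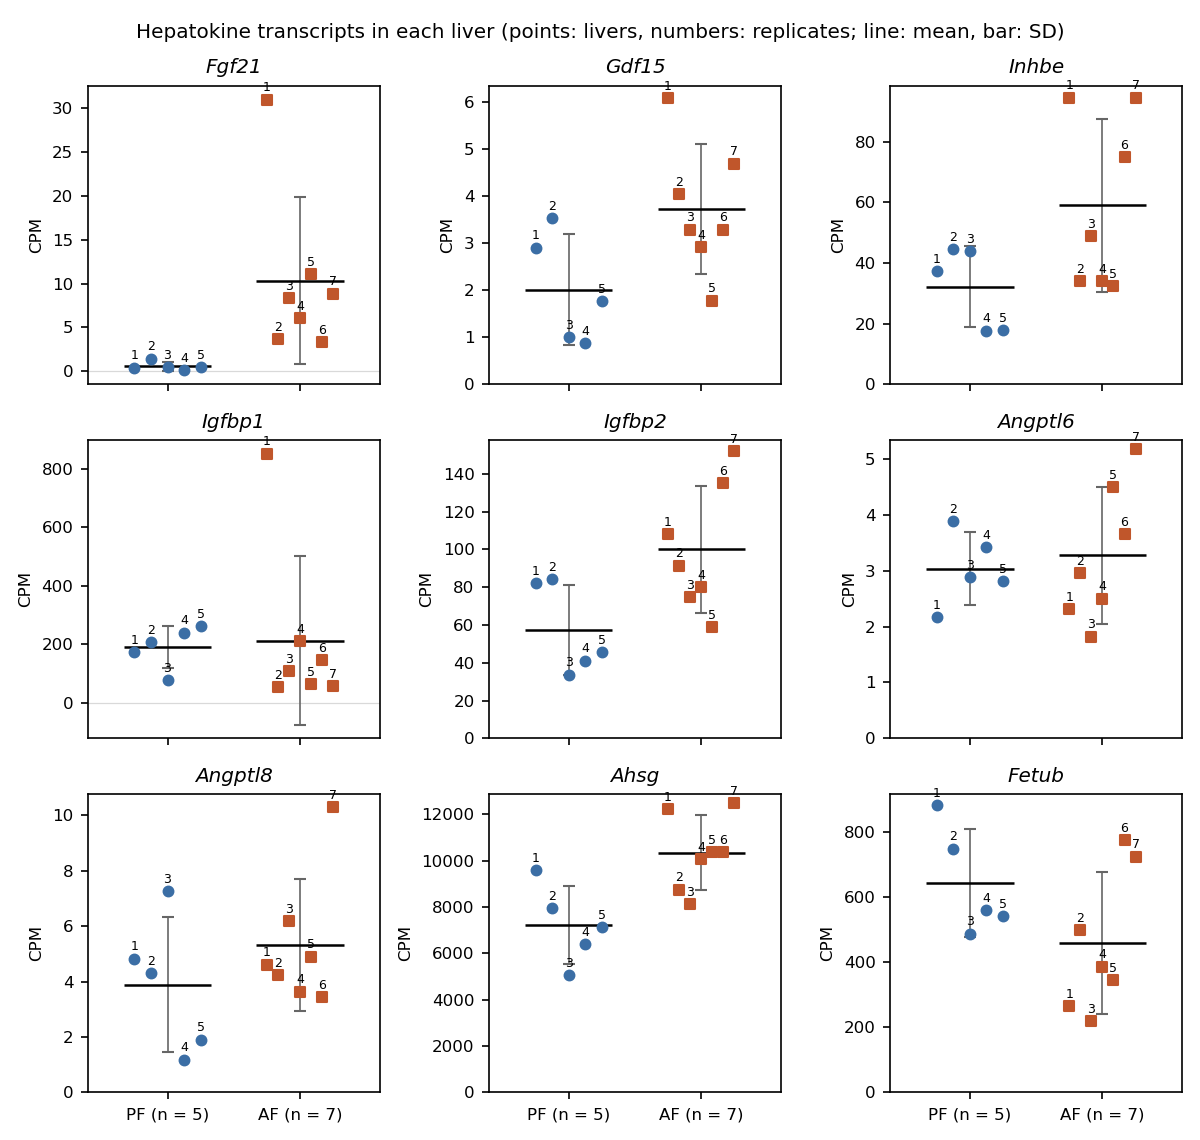
Level of each hormone transcript in CPM (vertical axes, from 0 in most panels) in the 5 PF livers (circles) and the 7 AF livers (squares); numbers are replicates, lines are means and bars are SD. Fgf21 separated the groups, AF replicate 1 alone carried the high Igfbp1 mean with 851 CPM, and the other panels overlap.

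Fgf21 (ENSMUSG00000030827, GRCm38 chr7:45613886-45615490, minus strand) encodes fibroblast growth factor 21, which raises fatty acid oxidation and lowers the appetite for sugar and alcohol. In PF livers it was low, with 0.394, 1.42, 0.417, 0.118 and 0.452 CPM in replicates 1 to 5 and 62 reads in all. In AF livers the lowest level was 3.31 CPM, the median 8.35 CPM and the highest 31 CPM, from 2487 reads in all. AF replicate 6 was the lowest and AF replicate 1 stood far above the rest, while PF replicate 2 was the highest of its group and still below every AF liver. The PF mean was 0.56 ± 0.498 (SD, n = 5) and the AF mean 10.3 ± 9.54 CPM (SD, n = 7). The log2 fold change was 4.22 ± 0.699 (SE, standard error; edgeR adjusted p = 0.000703), or 18.6-fold, and an exact two-sided permutation test over all splits of the livers into 5 and 7 gave 0.00126, the smallest p it can give. Without AF replicate 1 the log2 fold change was 3.63, and without PF replicate 2 it was 4.90. Fgf21 passed the threshold in all 20 alternatives tried. Scaled to exon length (RPKM, the CPM per kilobase), Fgf21 was above 22.6% of the tested genes in PF and above 80.5% in AF livers.

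Part of the upstream sequence of Fgf21 is shown, with similar stretches for Angptl8 and Inhbe, because all 3 hold the same 8-letter match to the element bound by C/EBP-ATF pairs such as those of ATF4 and CHOP. Capitals mark the match, TGATGCAA or its reverse complement TTGCATCA, searched on both strands of the 250 bases before each RefSeq start (GRCm38.p6), 5′ to 3′ on the strand of the gene.
Fgf21, chr7:45615596-45615655, minus strand: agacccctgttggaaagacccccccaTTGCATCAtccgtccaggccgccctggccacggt
Angptl8, chr9:21835354-21835413, plus strand: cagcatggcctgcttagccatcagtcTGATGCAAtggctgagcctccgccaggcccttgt
Inhbe, chr10:127351996-127352055, minus strand: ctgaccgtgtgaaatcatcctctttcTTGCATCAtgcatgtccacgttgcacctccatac

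The match lay 139 bases before the RefSeq start in Fgf21, 130 in Angptl8 and 181 in Inhbe. The RefSeq start of Inhbe lies downstream of the GENCODE start, so its match falls inside the gene span given for Inhbe below. The match was present in 0.791% of the 32851 mouse promoters of the same length. The 9 hormone genes have 12 RefSeq promoters in all, and this motif was in 3 of them. Of these genes Fgf21 passed the test, whereas Inhbe and Angptl8 did not, as given below. A match describes the letters of the window and is not a measured site.

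Gdf15 (ENSMUSG00000038508, chr8:70629393-70632456, minus strand) encodes growth differentiation factor 15, a hormone of mitochondrial and folding stress that reduces food intake through a hindbrain receptor. PF livers had 2.9, 3.52, 1.0, 0.865 and 1.76 CPM. AF livers ranged from 1.77 through a median of 3.28 to 6.07 CPM. AF replicates 1, 2 and 7 lay above all PF livers, and the remaining 4 lay within the PF range, because PF replicates 1 and 2 were themselves high. The means of 2.01 ± 1.17 (SD, n = 5) and 3.72 ± 1.38 CPM (SD, n = 7) gave a log2 fold change of 0.89 ± 0.376 (SE; edgeR adjusted p = 0.074; exact permutation p = 0.0429). Gdf15 passed the threshold without PF replicate 2 (1.19, edgeR adjusted p = 0.0334) and without AF replicate 5 (1.02, edgeR adjusted p = 0.0409). Compared within each liver, where scaling plays no part, there were 7, 2.46, 2.33, 6.43 and 3.76 Gdf15 reads for each Fgf21 read in PF replicates 1 to 5. In AF livers there were 0.16 to 1.12. Every AF liver thus lay below every PF liver, and the mean log2 ratio went from 1.98 to -1.16 (exact permutation p = 0.00126, adjusted to 0.00316 over 5 ratios). Fgf21 by itself also separated the groups. How often other pairs of genes do so was not computed, for this or the ratios below.

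Inhbe (ENSMUSG00000047492, chr10:127348857-127354411, minus strand) encodes the beta E subunit of inhibin and activin, a hepatokine whose loss lowers abdominal fat in people. PF livers had 37.3, 44.5, 43.8, 17.7 and 17.8 CPM. AF livers had a minimum of 32.3, a median of 48.8 and a maximum of 94.6 CPM. AF replicates 1 and 7 shared the maximum, AF replicates 3 and 6 also exceeded the PF range, and AF replicates 2, 4 and 5 fell inside it. The log2 fold change was 0.87 ± 0.359 (SE; edgeR adjusted p = 0.068; exact permutation p = 0.0669), and it passed the threshold without AF replicate 5 (edgeR adjusted p = 0.0456). The neighbouring subunit gene Inhbc fell by 1.15 on the log2 scale (edgeR adjusted p = 0.00956), from a PF mean of 78.1 ± 11.2 (SD, n = 5) to an AF mean of 35.3 ± 18.6 CPM (SD, n = 7). The ratio of Inhbe to Inhbc reads within a liver was 0.549, 0.459, 0.564, 0.239 and 0.244 in PF replicates 1 to 5 and 0.836 to 4.57 in AF livers. The groups did not overlap, and the mean log2 ratio rose from -1.38 to 0.76 (exact permutation p = 0.00126, adjusted to 0.00316). Of the other subunits, Inhbb rose (log2 fold change 1.77, edgeR adjusted p = 0.00284) and Inhba fell (log2 fold change -0.69, edgeR adjusted p = 0.0447), and on library totals Inhba did not pass (-0.30, edgeR adjusted p = 0.426).

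Igfbp1 (ENSMUSG00000020429, chr11:7197782-7202546, plus strand) encodes an IGF binding protein that insulin silences and that fasting and stress induce. Its upstream sequence holds CAAAACA, which forms the core of the insulin response element through which FOXO1 acts on this gene. The stretch is printed with that match in capitals, 108 bases before the start, and the motif was present on either strand in 5.56% of promoters.
Igfbp1, chr11:7197653-7197711, plus strand: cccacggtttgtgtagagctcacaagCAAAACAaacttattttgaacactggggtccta

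PF livers had 173, 207, 77.4, 239 and 261 CPM of Igfbp1. AF livers spread from 51.9 CPM in replicate 2 over a median of 107 CPM to 851 CPM in replicate 1, a 16.4-fold range. AF replicate 1 alone exceeded the PF range, and AF replicates 2, 5 and 7 lay below it. The log2 fold change was 0.15 ± 0.661 (SE; edgeR adjusted p = 0.874), whereas the difference of mean log2 CPM was -0.49 (exact permutation p = 0.506). Without AF replicate 1 the log2 fold change was -0.85 (edgeR adjusted p = 0.108), and without PF replicate 3 it was -0.06. With all livers kept it was -0.58 by limma-voom with sample quality weights. With the replicate number as a block it was -0.34. In that fit AF replicates 6 and 7 have no PF liver of their number and do not inform the group difference. The direction thus rested on single livers and on the method. AF replicate 1 also had the highest Fgf21 and Gdf15 levels, the highest TMM factor (1.36) and the highest bile duct marker sum (1109 CPM), and the part of these in its Igfbp1 level was not tested.

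Igfbp2 (ENSMUSG00000039323, chr1:72824503-72852474, plus strand) encodes the binding protein that leptin induces and that is low in fatty liver and obesity. PF livers had 82, 84.2, 33.7, 41.2 and 45.6 CPM. AF livers had a minimum of 58.8, a median of 91.5 and a maximum of 152 CPM. AF replicates 1, 2, 6 and 7 exceeded all PF livers, AF replicates 3, 4 and 5 did not, and PF replicates 1 and 2 reached into the AF range. Igfbp2 rose from a PF mean of 57.3 ± 23.9 (SD, n = 5) to an AF mean of 100 ± 33.8 CPM (SD, n = 7), with a log2 fold change of 0.80 ± 0.283 (SE; edgeR adjusted p = 0.0372; exact permutation p = 0.0303), or 1.75-fold. It passed the threshold in 8 of 8 alternatives that kept all libraries but in 5 of 12 that left out a library. The 8 include the replicate block, in which AF replicates 6 and 7 have no PF liver of their number and do not inform the group difference. Igfbp2 did not pass without PF replicate 3, 4 or 5 or without AF replicate 1, 2, 6 or 7, where the edgeR adjusted p reached 0.0926. The log2 ratio of Igfbp2 to Igfbp1 within a liver was -1.73 ± 0.73 (SD, n = 5) in PF and -0.40 ± 1.46 (SD, n = 7) in AF livers (exact permutation p = 0.096, adjusted p = 0.12). AF replicate 1, at -2.98, was the lowest of all livers, and without it the difference was 1.75 (exact permutation test, adjusted p = 0.0162).

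Of 24 ligands, relatives and binding partners of the hormones, 20 could be tested, 6 were higher, 4 were lower and 10 did not pass, with a median log2 fold change of -0.16, where 22% of all genes were higher and 17.8% lower. On library totals 9 were higher and 3 lower, where 45.6% of all genes were higher and 6.62% lower. Igf1, the hormone these proteins bind, fell from a PF mean of 575 ± 32.1 (SD, n = 5) to an AF mean of 333 ± 83.1 CPM (SD, n = 7), with a log2 fold change of -0.79 (edgeR adjusted p = 0.00201), and every AF liver lay below every PF liver. Igfals, the acid-labile subunit that stabilises circulating IGF complexes, fell by 1.07 on the log2 scale (edgeR adjusted p = 0.00958). Igfbp3, the main carrier of IGF1 in blood, rose (log2 fold change 1.08, edgeR adjusted p = 0.00127), as did Igfbp7 (1.04, edgeR adjusted p = 0.00468). The calls of these 4 genes and their directions were the same on library totals.

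**Figure D2:**
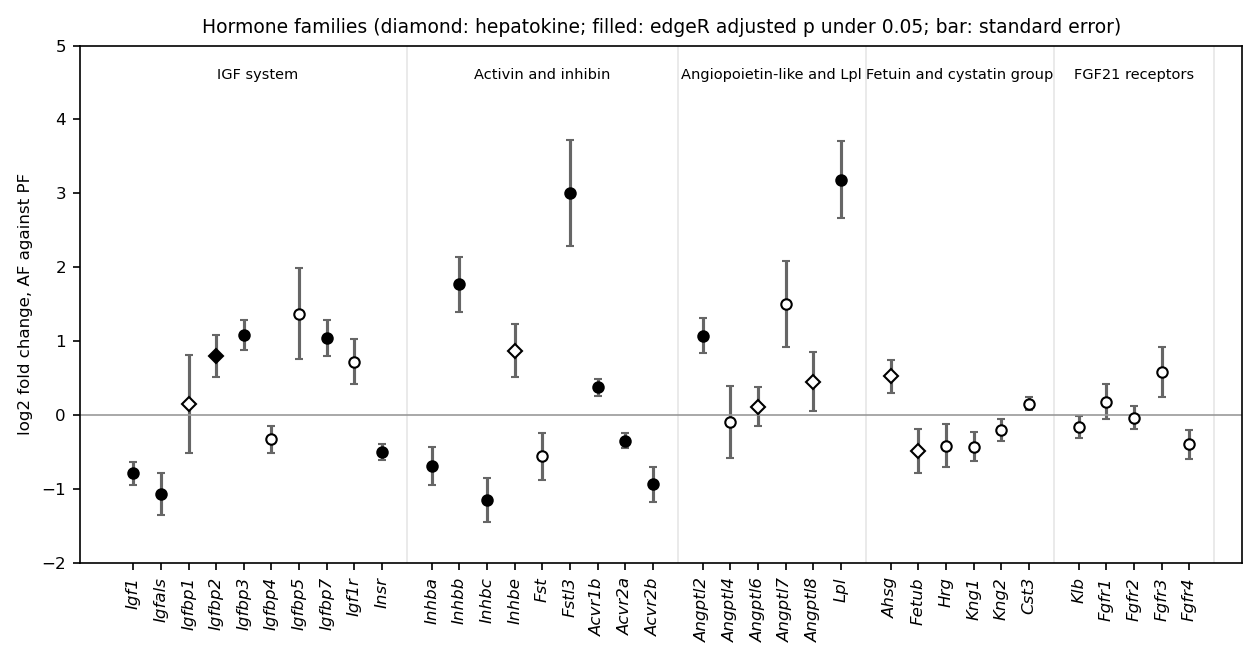
Log2 fold change of AF against PF livers (vertical axis; bars are standard errors) for the hormone genes (diamonds) and genes of their families and receptors (circles), filled where the edgeR adjusted p was under 0.05. Igfbp2 rose beside lower Igf1 and Igfals, Inhbe had a positive value beside a lower Inhbc, and Lpl at 3.18 exceeded every angiopoietin-like gene shown.

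Angptl8 (ENSMUSG00000047822, chr9:21835510-21837347, plus strand, inside an intron of Dock6 on the opposite strand) encodes a feeding-induced protein that takes part in the inhibition of lipoprotein lipase. PF livers had 4.82, 4.3, 7.25, 1.18 and 1.9 CPM. AF livers had 3.43, 4.61 and 10.3 CPM as minimum, median and maximum. AF replicate 7 alone lay above the PF range, and PF replicates 4 and 5 lay below all AF livers. The log2 fold change was 0.45 ± 0.402 (SE; edgeR adjusted p = 0.386; exact permutation p = 0.213). Angptl6 (ENSMUSG00000038742, chr9:20873808-20879727, minus strand) encodes angiopoietin-related growth factor, which counters obesity in mice. It had 2.17, 3.89, 2.88, 3.42 and 2.81 CPM in PF livers and 1.82, 2.96 and 5.17 CPM as minimum, median and maximum in AF livers. The AF livers extended beyond the PF range on both sides, with replicates 5 and 7 above and replicate 3 below. The log2 fold change was 0.11 ± 0.26 (SE; edgeR adjusted p = 0.762; exact permutation p = 0.843), and its sign changed without AF replicate 7. Of the exon bases of Angptl6, 16.8% are shared with A230050P20Rik on the opposite strand, and the strand setting of the counting is not stated, so its level is uncertain. Angptl4 did not pass the test (log2 fold change -0.10), while Lpl, the lipase it inhibits, rose from a PF mean of 45.1 ± 19.2 (SD, n = 5) to an AF mean of 409 ± 262 CPM (SD, n = 7), with a log2 fold change of 3.18 (edgeR adjusted p = 0.000667).

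Ahsg (ENSMUSG00000022868, chr16:22891277-22899449, plus strand) encodes fetuin-A, which binds calcium phosphate in plasma and inhibits the insulin receptor. PF livers had 9574, 7941, 5063, 6390 and 7129 CPM. AF livers ranged from 8130 over a median of 10354 to 12489 CPM. AF replicates 2 and 3 overlapped with the PF range and the other 5 exceeded it. The means of 7219 ± 1689 (SD, n = 5) and 10338 ± 1614 CPM (SD, n = 7) gave a log2 fold change of 0.52 ± 0.22 (SE; edgeR adjusted p = 0.0755), with an exact permutation p of 0.00758. The call depended on the scaling, since on library totals PF livers had 4560 to 8067 and AF livers 9060 to 16669 CPM, without overlap, and the log2 fold change was 0.89 (edgeR adjusted p = 0.0026).

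Fetub (ENSMUSG00000022871, chr16:22918334-22939778, plus strand), the neighbour of Ahsg on the chromosome, encodes fetuin-B, a protease inhibitor that is raised in human fatty liver. PF livers had 882, 748, 487, 560 and 541 CPM. AF livers ranged from 219 over a median of 386 to 774 CPM. AF replicates 1, 3, 4 and 5 lay below the PF range, and AF replicates 2, 6 and 7 lay within it. The log2 fold change was -0.49 ± 0.304 (SE; edgeR adjusted p = 0.212; exact permutation p = 0.12). On library totals it was -0.20 (edgeR adjusted p = 0.469), and with the replicate number as a block it was -0.93 (edgeR adjusted p = 0.00747). AF replicates 6 and 7, the highest AF livers at 774 and 724 CPM, have no PF liver of their number. They do not inform the group difference of the block fit.

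Within a liver the fetuins parted. The log2 ratio of Fetub to Ahsg reads was -3.44, -3.41, -3.38, -3.51 and -3.72 in PF replicates 1 to 5, the narrowest spread of the 5 ratios computed (-3.49 ± 0.14, SD, n = 5). In AF livers it ranged from -5.53 to -3.74, with a mean of -4.62 ± 0.65 (SD, n = 7). The AF livers all lay below the PF livers, the nearest being AF replicate 6 at -3.74 and PF replicate 5 at -3.72. There was 1 Fetub read for 11.2 Ahsg reads in PF and for 24.6 in AF livers (difference of log2 ratios -1.13, exact permutation p = 0.00631, adjusted to 0.0105). The log2 ratio of Angptl8 to Angptl6 was 0.11 ± 1.19 (SD, n = 5) in PF and 0.69 ± 0.62 (SD, n = 7) in AF livers and did not pass (exact permutation p = 0.295).

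**Figure D3:**
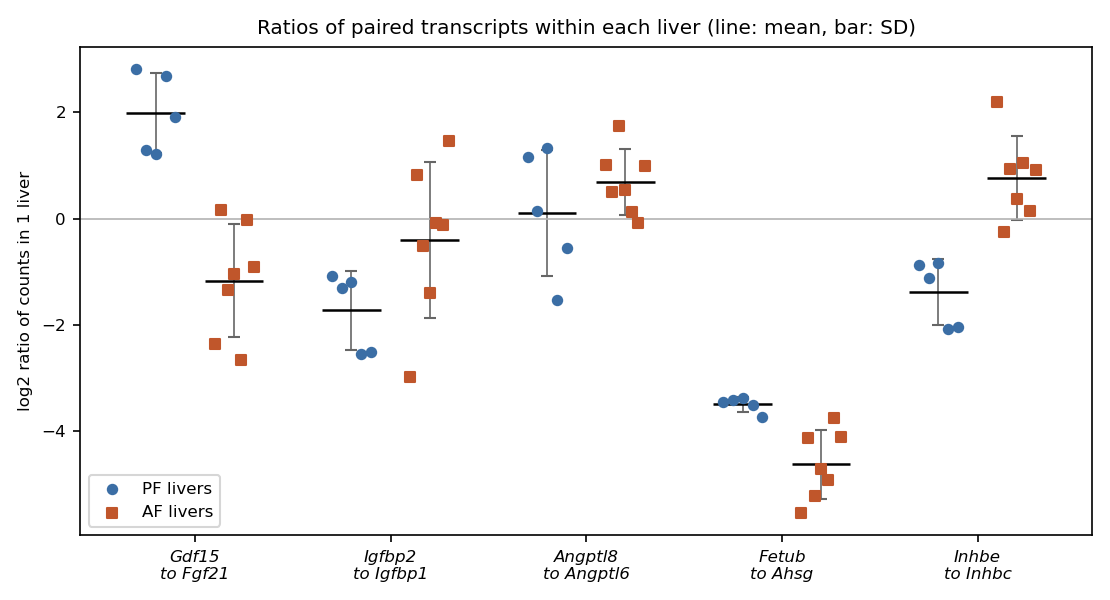
Log2 ratio of the reads of paired genes in the same liver (vertical axis) for 5 PF livers (circles) and 7 AF livers (squares); lines are means and bars are SD. For Gdf15 to Fgf21, Fetub to Ahsg and Inhbe to Inhbc no AF liver overlapped with the PF livers, and for Igfbp2 to Igfbp1 and Angptl8 to Angptl6 the groups overlapped. Of single genes, 8.2% had every AF liver above and 9.49% every AF liver below every PF liver. The share among other gene pairs was not computed.

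The order of the 9 transcripts by length-scaled level changed at its lower end. In PF livers Ahsg led with 3286 RPKM, followed by Fetub at 328, Igfbp1 at 126, Igfbp2 at 31, Inhbe at 6.06, Angptl8 at 4.5, Angptl6 at 1.92, Gdf15 at 1.09 and Fgf21 at 0.589 RPKM. The ranges of neighbours in this order did not overlap down to Inhbe and overlapped from Inhbe on. In AF livers Fgf21 stood at 10.9 RPKM beside Inhbe at 11.1 RPKM, above Angptl8, Angptl6 and Gdf15 at 6.15, 2.07 and 2.01 RPKM. Of neighbours in the AF order, the ranges did not overlap between Ahsg and Fetub, between Igfbp2 and Inhbe, and between Angptl8 and Angptl6. The RPKM of Inhbe is understated where livers use short transcripts, because its annotated exons add up to 5319 bases.

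High and low livers differed from gene to gene. Among AF livers, replicate 1 was the highest in Fgf21, Gdf15 and Igfbp1, replicate 7 in Igfbp2, Angptl6, Angptl8 and Ahsg, and replicate 6 in Fetub. AF replicate 5 was the lowest in Gdf15, Igfbp2 and Inhbe and the next to highest in Fgf21. Among PF livers, replicate 2 was the highest in 5 of the 9 genes, and replicates 3 and 4 were the lowest in 4 genes each.

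The stress response to which Fgf21 and Gdf15 belong was examined as a list of 20 ATF4 and CHOP pathway genes, the factors themselves and further targets, of which 19 could be tested. Of these, 12 were higher and 1, Cebpb, was lower, where 22% of all genes were higher and 17.8% lower, and the median log2 fold change was 1.51 against 0.04 over all genes. On library totals 12 were higher and 0 lower (45.6% and 6.62% of all genes), and Cebpb did not pass (-0.64, edgeR adjusted p = 0.0757). Ddit3, the gene of CHOP, rose with a log2 fold change of 2.46 (edgeR adjusted p = 0.000938) and Atf4 with 0.46 (edgeR adjusted p = 0.0148). Trib3, a pseudokinase induced by CHOP, rose by 4.22 (edgeR adjusted p = 2.92e-05) and the cystine transporter gene Slc7a11 by 8.13 (edgeR adjusted p = 9.05e-05), both on the log2 scale, whereas the asparagine synthetase gene Asns did not pass (0.66, edgeR adjusted p = 0.252). A score of the pathway, the mean log2 CPM of its 19 tested genes, was 2.40 to 2.99 in PF and 3.70 to 4.95 in AF livers.

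Whether AF livers with a higher score also had more of a hormone transcript was examined for all 9 genes over the 7 AF livers. Igfbp1 had the highest correlation (Pearson r = 0.794, exact permutation p = 0.0333, adjusted to 0.3 over 9 genes; Spearman rho = 0.821, exact permutation p = 0.0341, adjusted to 0.307), and r was 0.405 without the 2 livers farthest from the median score, AF replicates 1 and 2. For Fgf21, r was 0.599 (exact permutation p = 0.148, adjusted to 0.604) and rho 0.321 (exact permutation p = 0.498, adjusted to 0.896), and without the same livers r was -0.548. None of the 9 correlations passed after adjustment. Between the groups, Fgf21 and the score were both higher in every AF liver, while within the AF group AF replicate 6 had the next to highest score, 4.63, and the lowest Fgf21 level.

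**Figure D4:**
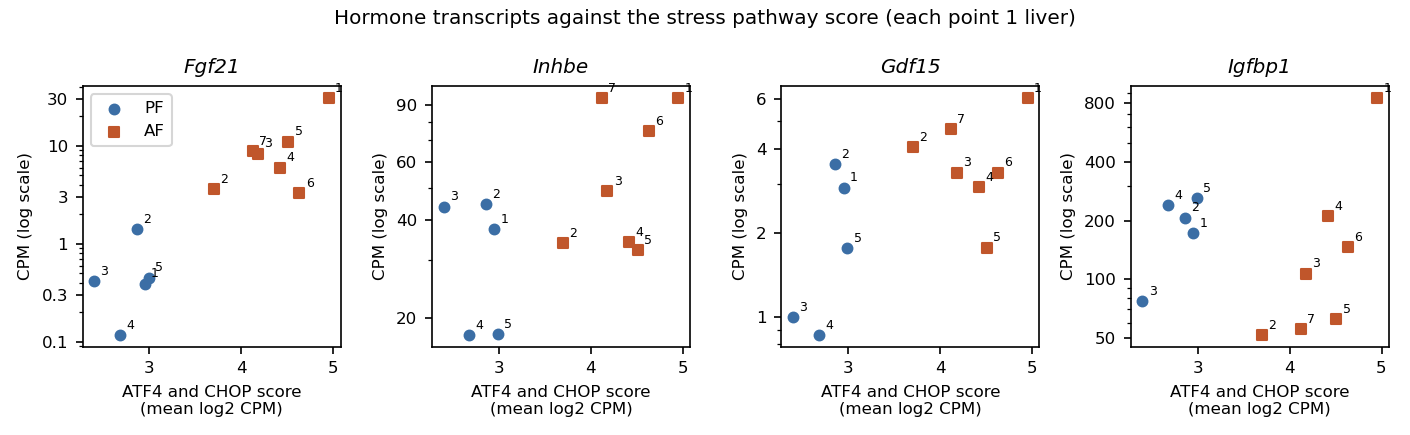
Level of 4 hormone transcripts (vertical axis, CPM on a log scale) against the ATF4 and CHOP pathway score (horizontal axis, mean log2 CPM of 19 genes) in PF livers (circles) and AF livers (squares), with replicate numbers. All AF livers lie at scores of 3.70 or more and all PF livers at 2.99 or less, and within the AF group AF replicate 1 is at the upper right of each panel.

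Other regulators of these hormones were examined as a list of 15 transcription factors. Atf3 (log2 fold change 4.15, edgeR adjusted p = 0.00155) and Trp53 (0.39, edgeR adjusted p = 0.0148) rose, 6 were lower and 7 did not pass, with a list median of -0.47, where 22% of all genes were higher and 17.8% lower. Ppara, the fasting and fatty acid receptor that drives Fgf21 and Angptl4, fell from a PF mean of 119 ± 18.5 (SD, n = 5) to an AF mean of 47.1 ± 27 CPM (SD, n = 7), with a log2 fold change of -1.34 (edgeR adjusted p = 0.00462). Srebf1 and Mlxipl, the insulin and glucose responsive factors of lipid synthesis that act on Angptl8 and Fgf21, had log2 fold changes of -1.34 (edgeR adjusted p = 0.00339) and -0.77 (edgeR adjusted p = 0.0158). Foxo1, which acts on Igfbp1, fell by 0.73 on the log2 scale (edgeR adjusted p = 0.00151). On library totals 3 of the 15 factors were higher and 4 lower (45.6% and 6.62% of all genes), and Ppara, Srebf1, Mlxipl and Foxo1 were lower there too.

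Of 13 receptor genes of these hormones 10 could be tested, 1 was higher and 3 were lower, a share close to the 39.8% of all genes called in either direction, with a median log2 fold change of -0.10. Klb, the co-receptor without which FGF21 does not signal, had a PF mean of 28.9 ± 1.89 (SD, n = 5) and an AF mean of 25.8 ± 6.3 CPM (SD, n = 7), with -0.16 on the log2 scale (edgeR adjusted p = 0.396). Fgfr1 and Fgfr4 did not pass (0.18 and -0.40). Gfral, the receptor of GDF15, had 0 reads over all 12 libraries, which allows up to 3 reads by counting error alone, and its partner Ret had 3. The insulin receptor gene Insr (log2 fold change -0.50, edgeR adjusted p = 0.00298) and the activin receptor gene Acvr2a (-0.35, edgeR adjusted p = 0.0194) fell and Acvr1b rose (0.37, edgeR adjusted p = 0.0212). Acvr2b, with a PF mean of 1.08 CPM, fell too (-0.94, edgeR adjusted p = 0.00818). The calls of the lower genes rested on the scaling. On library totals 3 receptor genes were higher and 0 lower (45.6% and 6.62% of all genes), and Acvr1b still passed (0.73, edgeR adjusted p = 0.00335). Insr and Acvr2b kept their sign there without passing (-0.15 and -0.58, edgeR adjusted p = 0.204 and 0.068), and Acvr2a was at 0.01 on the log2 scale.

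The genes whose profile over the 12 livers was nearest to that of a hormone were sought for Fgf21 and Igfbp2. The measure was the root mean square difference in log2 CPM after each gene was centred on its mean. For Fgf21 they were Apoa4, a lipoprotein gene (0.67), H2-T-ps (0.678) and Cyp4a31, a fatty acid hydroxylase gene (0.749), against a median of 2.14 over all genes. Their log2 fold changes were 3.21, 5.00 and 4.32. For Igfbp2 they were Mif (0.275), Plekhg5 (0.283) and Tex264 (0.313), against a median of 0.737, with log2 fold changes of 0.88, 0.68 and 0.54. The profiles share libraries and the group difference, and no test was made of them.

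The size of each group difference was set beside the alternatives. Fgf21 and Igfbp2 kept a positive sign in all 20 alternatives, as did Gdf15, Inhbe, Ahsg and Angptl8, and Fetub kept a negative sign. Igfbp1 and Angptl6 had values on both sides of 0. By DESeq2, on library totals and by limma-voom with sample quality weights, Gdf15, Inhbe and Ahsg passed in addition, which made 5 of the 9 genes higher. Of all genes 23.3% were called higher by DESeq2, 45.6% on library totals and 28% by limma-voom. Limma-voom also called Fetub lower, where 25% of all genes were lower.

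**Figure D5:**
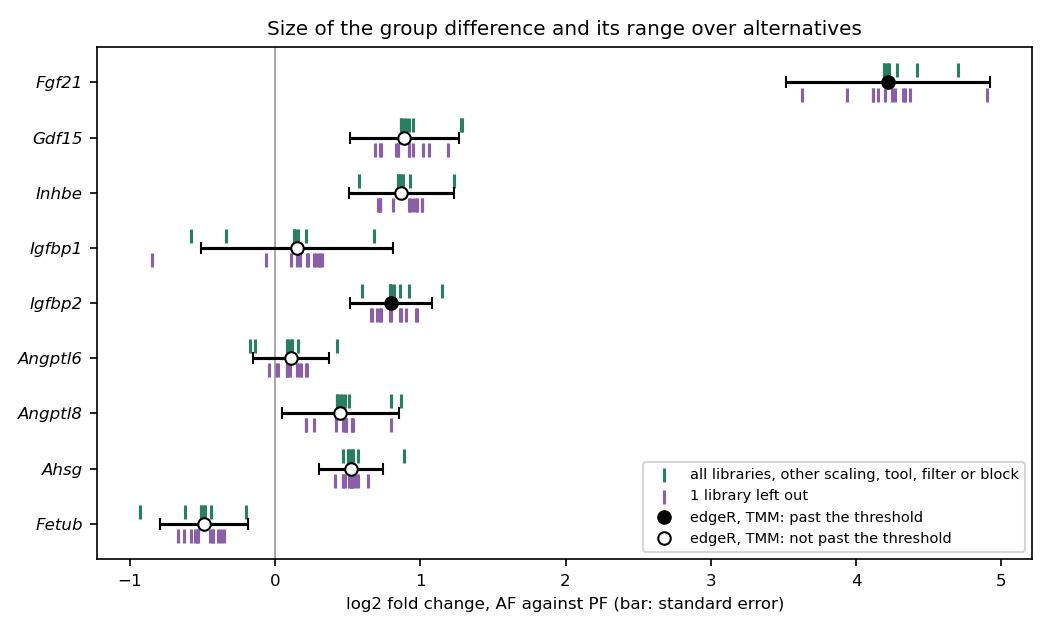
Log2 fold change of AF against PF livers (horizontal axis) for each hormone gene by edgeR with TMM (circles, filled where adjusted p was under 0.05; bars are standard errors), with alternatives that kept all libraries (ticks above) and that left out a library (ticks below). Fgf21 lies between 3.63 and 4.90 throughout, and the ticks of Igfbp1, from -0.85 to 0.68, and of Angptl6 fall on both sides of 0. The ticks above include the replicate block, where AF replicates 6 and 7 do not inform the group difference.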

How the data were processed

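RNA of 5 PF and 7 AF livers was measured. The authors deposited raw read counts per Ensembl gene. Per the methods and the submitters' processing notes, mRNA was enriched with oligo(dT), reads were checked with FastQC 0.10.1, aligned to mm10 (GRCm38) with TopHat2 2.0.13 and, per the notes, HTSeq 0.10.0 was used. The annotation and strand setting of the counting are not given in the sources used here, and the library kit is stranded. The Cuffdiff2 comparison described in the methods was not run here.

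GENCODE M21 named 54165 of 54232 IDs. Genes were filtered with filterByExpr, scaled with TMM and compared with edgeR 4.0.16 (quasi-likelihood test, no covariates, Benjamini-Hochberg adjustment over all genes, threshold 0.05) in R 4.3.3, with limma 3.58.1 and DESeq2 1.42.0 as alternatives. Log2 CPM used a pseudocount of 0.1 and ratios an offset of 0.5 counts. Exact two-sided permutation tests of group differences ran over all splits of the 12 livers, and those of correlations over all pairings within the 7 AF livers. The labels number the mice but name no litters or cages, so p-values measure the spread between these livers. Of 31 pairs of libraries within groups, none matched within counting noise (lowest chi-square per degree of freedom 14). On simulated data of 13509 genes, of which 200 had been changed, edgeR found 193 and made 11 false calls. The simulation gave all genes the same dispersion and changed equal numbers up and down. In the real data 39.8% of genes passed, so these rates cannot be carried over to the calls given here.

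The members and lists were chosen with earlier results of these data known. All 9 hormone genes are named, with the up to 4 genes with the largest changes of each list above the threshold and at a mean log2 CPM of at least 0, genes a hormone binds or resembles, and the 3 nearest profiles. Alternatives were RLE and upper-quartile scaling, library totals, DESeq2, limma-voom with sample quality weights, looser and stricter filters (any gene with 1 count, or a mean count of 10), the replicate number as a block, other offsets and each library left out.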

Additional observations from a re-analysis of the deposited data

Results flagged for a closer look

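In groups of 5 or 7 livers, the gap between the highest or lowest liver and its neighbour was compared with the range of the group (Dixon's test at 95%). Of 28 groups examined, 4 went beyond the limit, where chance gives about 1 in 20 groups, here 1.4. The Fgf21 level of PF replicate 2 was 1.42 CPM and stood apart from the other PF livers. AF replicate 1 stood apart in Fgf21, at 31 CPM, and in Igfbp1, at 851.0 CPM. AF replicate 7 stood apart in Angptl8, at 10.3 CPM.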

How the results depend on the processing

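Fgf21 kept its direction and its side of the threshold in all 20 alternatives, and so did Angptl8, which passed in none. On library totals the log2 fold changes of Ahsg, Gdf15 and Inhbe were 0.89, 1.29 and 1.23, all past the threshold, as they were by DESeq2 (0.50, 0.87 and 0.85) and by limma-voom with sample quality weights (0.54, 1.28 and 0.85). Each of the 3 thus gave 5 hormone genes higher. Upper-quartile scaling added Ahsg (0.57). Limma-voom also called Fetub lower (-0.62), the 1 gene called lower there, and turned Igfbp1 to -0.58 and Angptl6 to -0.17. On library totals 6458 genes were higher and 938 lower, and the correlation of Angptl8 with the pathway score turned to 0.01. The cause was not tested.

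Left out in turn, the libraries gave 1 to 4 hormone genes higher and 0 lower (17.4 to 25.3% and 14.7 to 20.7% of all genes), with log2 fold changes of 3.63 to 4.90 for Fgf21, 0.69 to 1.19 for Gdf15, 0.71 to 1.01 for Inhbe, -0.85 to 0.32 for Igfbp1, 0.66 to 0.98 for Igfbp2, -0.04 to 0.22 for Angptl6, 0.21 to 0.80 for Angptl8, 0.41 to 0.64 for Ahsg and -0.67 to -0.35 for Fetub. Ratio differences ran from 1.01 to 1.75 for Igfbp2 to Igfbp1 and from 0.17 without PF replicate 4 to 0.88 without PF replicate 3 for Angptl8 to Angptl6, and list counts past the threshold from 7 to 12 (other hepatokines), 3 to 5 (receptors) and 8 to 12 (transcription factors). Correlations ran from 0.17 without AF replicate 1 to 0.90 without AF replicate 6 (Fgf21), 0.14 without AF replicate 1 to 0.68 without AF replicate 7 (Inhbe), -0.61 to 0.28 (Gdf15), -0.10 to 0.28 (Igfbp2), -0.28 to 0.18 (Angptl6) and -0.51 to 0.06 (Fetub). For Ahsg they ran from 0.34 to 0.86 and for Angptl8 from -0.64 to -0.15.

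The labels do not say whether replicate numbers pair the livers. Deviations of same-numbered livers correlated at 0.00429, -0.076, 0.115, 0.0785 and 0.113, and 1 of 5 PF livers was most like the AF liver of its number. So few livers cannot settle whether the numbers pair them. With the number as a replicate block, Gdf15 (0.92) and Fetub (-0.93) also passed (of all genes 24% were called higher and 20.8% lower), Igfbp1 and Angptl6 were at -0.34 and -0.14, 1 hormone gene was lower, and 13 transcription factors passed. AF replicates 6 and 7 have no PF liver of their number and do not inform the group differences of the block fit. Fgf21 had 62 reads over all PF livers, whose levels spread 12-fold.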

Other observations

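Among 20 other hepatokine genes, all of them tested, 4 were higher, 6 were lower and 10 did not pass, with a median log2 fold change of -0.18. Of all genes 22% were higher and 17.8% lower. Gpnmb, a glycoprotein also made by macrophages, rose from 0.645 ± 0.88 (SD, n = 5) to 139 ± 129 CPM (SD, n = 7), with a log2 fold change of 7.76 (edgeR adjusted p = 0.000325). Macrophage marker sums were higher in all 7 AF livers too, and their part in this was not tested. Sparcl1 rose by 3.23 on the log2 scale (edgeR adjusted p = 0.00251). Hamp2, a paralog of the hepcidin gene, had a log2 fold change of -1.95 (edgeR adjusted p = 0.0462) and did not pass on library totals (edgeR adjusted p = 0.0593). On library totals 7 of these genes were higher and 3 were lower, where 45.6% of all genes were higher and 6.62% lower.

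CACGTG, the E-box bound by basic helix-loop-helix factors and its own reverse complement, was found before the RefSeq starts of Igfbp2, Fgf21 and Gdf15, at 142, 50 and 83 bases (for Gdf15 before a RefSeq start inside its GENCODE span), and in 6.02% of all promoters of the same length. The match is a description of letters.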
